A study of Mus musculus with 16 samples.

Results

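*Dusp5* and 9 further genes that ERK signaling switches on, *Dusp4*, *Dusp6*, *Spry1*, *Spry2*, *Spry4*, *Spred1*, *Etv4*, *Etv5* and *Phlda1*, were followed through mammary tumors of mice with and without a gene trap in *Resf1*. These 10 genes, of 23609 in the expression table, were listed by symbol after *Dusp5* had been seen to be lower in the gene trap tumors, and all 10 passed the filter on low values. The question was whether *Dusp5* moved alone or together with the other ERK output genes. Because *Dusp5* was picked on the difference between the genotypes, that difference is given below as a description and not as a test.

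RNA-seq of total RNA was available for 5 tumors of wildtype mice and 5 tumors of littermates heterozygous for *Resf1* (Resf1 +/-), all untreated and all carrying MMTV-PyMT. The study crossed the C57BL/6 gene trap line with FVB/MMTV-PyMT mice, so the animals of both groups have mixed C57BL/6 and FVB parentage. MMTV-PyMT is the polyoma middle T antigen driven by the mouse mammary tumor virus promoter, which is active in mammary epithelium, so every tumor in both groups was driven by the same oncogene. The gene trap allele is a germline lentiviral insertion in the first exon of *Resf1* that expresses an EGFP-cre fusion and truncates the message, and it is therefore present in tumor and stromal cells alike. The labels give no age, and they do not say whether the tumors of a group came from separate animals. The 5 values of a group may therefore not be independent, while the SE, intervals and p values below treat them as independent. If tumors shared an animal, these would be too narrow or too small.

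ERK is the last kinase of a relay that runs from receptor tyrosine kinases through RAS, RAF and MEK, and middle T feeds into it by recruiting SRC family kinases and the adaptor SHC at the membrane. Active ERK induces its own brakes. Dual-specificity phosphatases (DUSPs) remove the activating phosphates from ERK, Sprouty and SPRED proteins act upstream on receptors and RAS, and ETS factors of the PEA3 group carry the signal on to further genes. The messages of these genes are therefore commonly read together as an output of the pathway.

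*Dusp5* (ENSMUSG00000034765) encodes a nuclear phosphatase that acts on ERK with high selectivity, and its gene is known as a target of serum response factor. For 2 of the genes, *Dusp5* and a cytoplasmic counterpart, *Dusp6*, the bases just before the transcription start are shown, because they differ in the sites that serum response factor reads. Both stretches are the 250 bases upstream of the RefSeq start on the plus strand of GRCm38.p6, and capitals mark CArG boxes, the core of the serum response element.
*Dusp5*, chr19:53528895-53529144: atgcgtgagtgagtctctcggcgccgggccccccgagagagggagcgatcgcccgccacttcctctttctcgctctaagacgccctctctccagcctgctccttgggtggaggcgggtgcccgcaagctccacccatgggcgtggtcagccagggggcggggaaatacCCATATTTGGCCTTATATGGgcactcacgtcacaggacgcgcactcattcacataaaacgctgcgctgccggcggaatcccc
*Dusp6*, chr10:99262981-99263230: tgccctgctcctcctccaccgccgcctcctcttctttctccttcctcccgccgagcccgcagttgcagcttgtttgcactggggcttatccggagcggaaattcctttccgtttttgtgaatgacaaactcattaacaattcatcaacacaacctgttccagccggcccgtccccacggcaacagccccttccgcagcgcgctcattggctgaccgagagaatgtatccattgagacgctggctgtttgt

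The *Dusp5* stretch held 2 CArG boxes side by side, CCATATTTGG from 82 to 73 bases before the start and CCTTATATGG from 72 to 63 bases before it, with 0 bases between them. Windows of 300 bases around the start, 250 before and 50 after it, were at hand for 6 of the 10 genes, namely *Dusp5*, *Dusp6*, *Spry1*, *Spry2*, *Spred1* and *Etv5*, and 1 of these 6 genes, *Dusp5*, held a CArG box. Among all 32851 promoter windows, 1.63% held at least 1 CArG box and 6 windows (0.0183%) held 2 or more. The core of the ETS site, CCGGAA, was present in 14.9% of all windows and, among the 6 genes, in *Spry2*. Neither the longer ETS site CCGGAAGT (3.89% of all windows), the AP-1 site TGANTCA (7.81%) nor the cyclic AMP response element TGACGTCA (1.79%) occurred in any of the 6 genes on either strand. These matches describe the letters of the windows and do not show that a factor binds there.

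*Resf1* itself was examined first, since it is the targeted gene. Wildtype tumors held a mean of 4099 ± 400 (SD, n = 5) and gene trap tumors a mean of 3516 ± 361 (SD, n = 5), and the log2 fold change, always given here as gene trap minus wildtype, was -0.22 (SE 0.09). The unadjusted p in limma was 0.0313 and the adjusted p was 0.9997. The groups overlapped, with 2 of the 5 gene trap tumors inside the wildtype range. The deposited values are estimated counts that the authors had scaled by median ratios, which leaves the sequencing depth unknown, and folds were computed on log2(value + 1), which understates the change of low genes. The column totals lay between 31995078 and 42153593, and on the first principal component gene trap replicate 2 was far from all others (score 91.8 against -18.6 to -4.8).

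*Dusp5* was lower in every gene trap tumor than in any wildtype tumor. Its normalized values were 1204, 826, 955, 1823 and 1001 in wildtype replicates 1 to 5, and 734, 722, 759.8, 733 and 693 in gene trap replicates 1 to 5. Wildtype replicate 4 was by far the highest tumor, the gene trap tumors were nearly level, and the lowest wildtype tumor lay 8.7% above the highest gene trap tumor. The means were 1162 ± 394 (SD, n = 5) and 728 ± 24.3 (SD, n = 5), a log2 fold change of -0.62 (SE 0.17, 95% interval -0.99 to -0.24), or 34.8% lower. Without wildtype replicate 4 the log2 fold change was -0.44 (SE 0.11), without gene trap replicate 2 it was -0.61 (SE 0.19), and the groups stayed apart in both cases. When the columns were rescaled to the same total, the separation was lost, with the lowest wildtype tumor 0.07 log2 units below the highest gene trap tumor (-0.066), while the log2 fold change was -0.64. In bulk tumors fewer cells that express *Dusp5* and less *Dusp5* RNA in each cell cannot be told apart.

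Of all 21034 tested genes, 55 (0.261%) had every wildtype tumor above every gene trap tumor, and among the 10 genes followed here *Dusp5*, which was selected on this contrast, was the 1 that did. In the reverse direction, with every gene trap tumor above every wildtype tumor, there were 56 genes (0.266%) and 0 of the 10. No gene in the table passed an adjusted p of 0.05 in limma, 0 of 21034 (0%), *Dusp5* and the other 9 included. At an unadjusted p under 0.05, 201 genes (0.956%) had a lower and 278 (1.32%) a higher level in the gene trap group, and the 10 genes gave 1 lower, *Dusp5*, and 0 higher. *Dusp5* ranked 5th by unadjusted p in limma and 370th from the lowest log2 fold change. Both ranks come from the contrast on which it was chosen, so they describe that choice and carry no test.

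**Figure D1:**
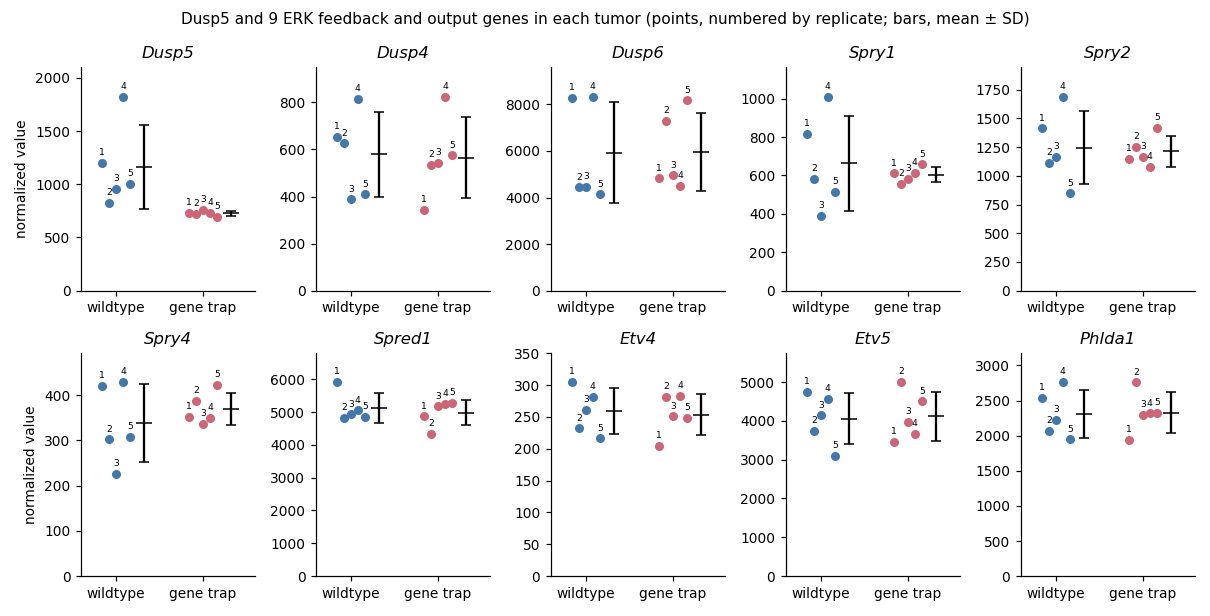
Normalized value (linear axis from 0) of *Dusp5* and the 9 other ERK feedback and output genes in each tumor; points are tumors numbered by replicate, blue for wildtype and red for gene trap, and bars are the mean ± SD of 5 tumors. Only in the *Dusp5* panel do the 5 gene trap points, 693 to 759.8, all lie under the 5 wildtype points, 826 to 1823.

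For the other 2 DUSPs of the group the genotypes overlapped. *Dusp6* encodes the cytoplasmic phosphatase that returns ERK to its inactive form, and its values were 8283, 4445, 4448, 8332 and 4141 in wildtype tumors and 4817, 7294, 4948, 4498 and 8178 in gene trap tumors. In both groups 2 tumors were high and 3 were low, all 5 gene trap tumors lay inside the wildtype range, and the log2 fold change was 0.04 (SE 0.24, 95% interval -0.49 to 0.56). *Dusp4* encodes a nuclear phosphatase that acts on ERK and also on other MAP kinases, and its values were 654, 627, 388, 816 and 409.7 in wildtype tumors and 343, 536, 543, 825 and 575 in gene trap tumors. The lowest and the highest of all 10 tumors were both gene trap tumors, and the log2 fold change was -0.03 (SE 0.24, 95% interval -0.56 to 0.50).

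The Sprouty genes, whose products restrain signaling between receptor and RAF, also overlapped between the genotypes. *Spry1* measured 818, 582, 390.2, 1011 and 516 in wildtype tumors and 611, 555, 583, 615 and 657 in gene trap tumors. All 5 gene trap tumors sat within a narrow band in the middle of the wide wildtype range, and the log2 fold change was -0.06 (SE 0.21, 95% interval -0.51 to 0.40). *Spry2* ranged from 847 through a median of 1167 to 1689.5 in wildtype tumors and from 1076 through a median of 1163 to 1417 in gene trap tumors, with a log2 fold change of -0.01 (SE 0.16, 95% interval -0.35 to 0.34). *Spry4* was 421, 303, 227, 429 and 308 in wildtype tumors and 352, 388, 337, 350.1 and 423 in gene trap tumors. Its log2 fold change of 0.17 (SE 0.17, 95% interval -0.20 to 0.53) was the highest of the 10 genes and opposite in sign to that of *Dusp5*, and all 5 gene trap tumors lay inside the wildtype range. *Spred1*, which brings the RAS brake neurofibromin to the membrane, varied little in either group, with means of 5111 ± 457 (SD, n = 5) for wildtype and 4983 ± 394 (SD, n = 5) for gene trap. Its log2 fold change was -0.04 (SE 0.08, 95% interval -0.21 to 0.14), the narrowest interval of the group.

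For the downstream output genes the means of the genotypes differed by less than the SD within either group. *Etv4* and *Etv5* encode PEA3 group ETS transcription factors. The mean of *Etv4* was 259 ± 35.9 (SD, n = 5) for wildtype and 254 ± 32 (SD, n = 5) for gene trap, a log2 fold change of -0.03 (SE 0.13, 95% interval -0.32 to 0.26). *Etv5* measured 4059 ± 666 (SD, n = 5) and 4121 ± 629 (SD, n = 5), a log2 fold change of 0.03 (SE 0.13, 95% interval -0.26 to 0.31). *Phlda1*, a pleckstrin homology domain gene often included in signatures of MEK output, measured 2309.9 ± 336 (SD, n = 5) and 2329 ± 290.1 (SD, n = 5), a log2 fold change of 0.01 (SE 0.11, 95% interval -0.23 to 0.26). For each of these 3 genes, 4 of the 5 gene trap tumors were inside the wildtype range.

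Across the 9 other genes, 5 log2 fold changes were below 0 and 4 above it, from -0.06 to 0.17 with a median of -0.01. Over all tested genes 48.6% were below 0, the median was 0.005 and the quartiles were -0.09 and 0.10. The 95% interval held 0 for all 9 and held the *Dusp5* estimate of -0.62 for 0 of the 9. That estimate comes from the contrast on which *Dusp5* was chosen. Its own interval, -0.99 to -0.24, overlapped with those of *Dusp4*, *Spry1* and *Dusp6*, among others, so the count does not set *Dusp5* apart from each of the 9. The intervals reached down to -0.56 for *Dusp4*, -0.51 for *Spry1* and -0.49 for *Dusp6*, so lower levels of that size could not be told from no difference for these 3 genes, whereas for *Spred1* the interval ended at -0.21. *Etv5* (-0.002) and *Phlda1* (-0.01) changed sign when the columns were rescaled to the same total, which also moved the median of all genes to -0.02. When single tumors were left out, the sign turned for 8 of the 9 other genes, *Spry4* excepted, and not for *Dusp5*.

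**Figure D2:**
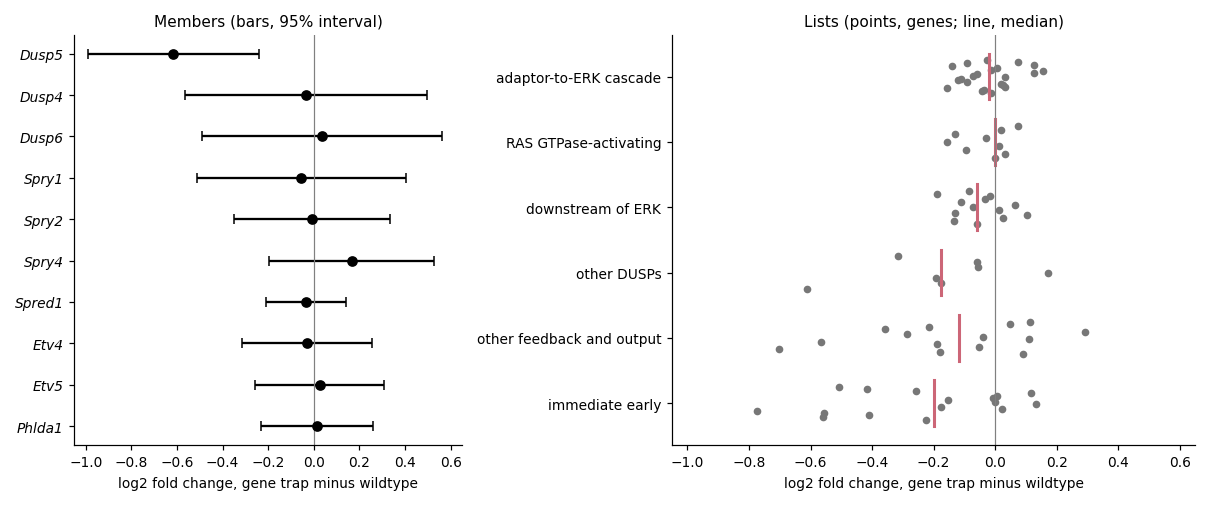
Log2 fold change, gene trap minus wildtype, of the 10 genes with 95% intervals (left) and of the tested genes of 5 RAS-ERK lists and an immediate early list (right, points are genes and red lines are list medians). The *Dusp5* interval, -0.99 to -0.24, lies below 0 and those of the 9 other genes, centred between -0.06 and 0.17, hold 0.

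Set against the other genes tumor by tumor, *Dusp5* was low in the gene trap group relative to the rest of its set. Taking each gene relative to its wildtype mean on the log2 scale, the mean of the other 9 genes was 0.29, -0.11, -0.24, 0.36 and -0.30 in wildtype replicates 1 to 5 and -0.20, 0.10, -0.04, 0.02 and 0.16 in gene trap replicates 1 to 5. *Dusp5* minus this mean was -0.18, -0.33, 0.01, 0.35 and 0.14 in the wildtype tumors and -0.41, -0.73, -0.51, -0.63 and -0.85 in the gene trap tumors. The 2 sets of differences did not overlap, and the largest shortfall of *Dusp5* was in gene trap replicate 5, where 5 of the 9 other genes had their highest gene trap value and *Dusp5* its lowest. *Dusp5* relative to *Dusp6* alone did overlap between the groups, from -0.45 to 0.29 in wildtype and from -1.23 to -0.28 in gene trap tumors. These differences use the contrast on which *Dusp5* was chosen and carry no test.

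Within the wildtype group the 10 genes had the same 2 highest tumors. Replicates 1 and 4 were these tumors for *Dusp5* and for all 9 of the other genes. The share of all tested genes with these 2 tumors on top is not given here, so this count has no background beside it. Replicate 4 was the highest of all 10 tumors for 6 of the 10 genes (8.16% of all tested genes were highest there). The spread of log2 values was wider in wildtype than in gene trap tumors for all 10 genes, against 40.5% of all tested genes, and without wildtype replicate 4 for 8 of the 10, against 40%. The contrast in spread was largest for *Dusp5*, with a log2 SD of 0.44 in wildtype and 0.048 in gene trap tumors, followed by *Spry1* with 0.54 and 0.09. The gene trap SD of *Dusp5* stood at percentile 0.761 of all tested genes and its wildtype SD at percentile 82.3. *Dusp5* was chosen for its difference between these groups, and such a choice can favor a gene with little spread in a group. Its spread is therefore a description. *Dusp4*, *Spred1* and *Etv4* had nearly equal spread in both groups, with ratios of 1.03, 1.03 and 1.06.

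**Figure D3:**
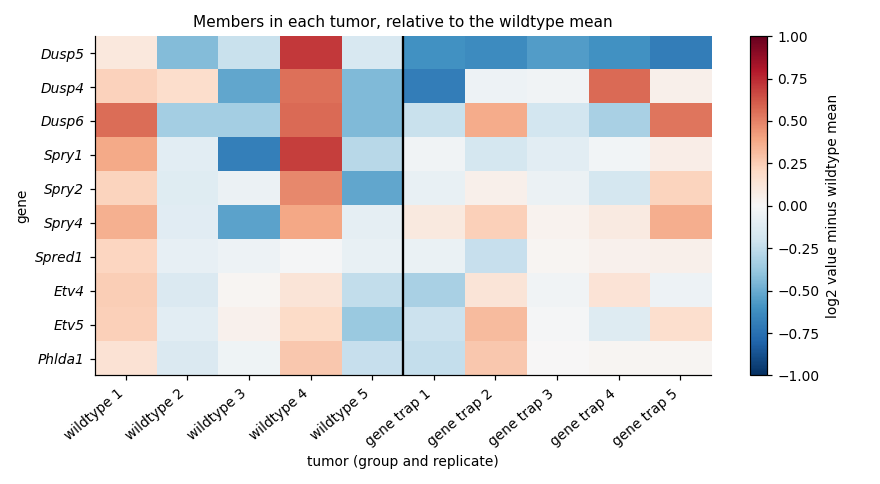
Log2 value of each gene in each tumor minus that gene's wildtype mean, on a color scale from -1 (blue) to 1 (red), with wildtype tumors left and gene trap tumors right of the black line. The *Dusp5* row is blue in all 5 gene trap tumors (-0.69 to -0.55), the *Spry4* row is red in all 5 (0.04 to 0.36), and the remaining 8 rows mix both colors there.

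The co-variation of *Dusp5* with each other gene was then examined after the group means were taken away, so that the genotype difference could not enter. Over the 10 tumors Pearson's r ran from 0.23 for *Spred1* to 0.78 for *Spry1*. *Spry1* had r 0.78 (two-sided exact permutation p 0.101) and rho 0.75 (exact permutation p 0.0944), *Spry2* r 0.68 (p 0.176 by exact permutation) and rho 0.54, *Spry4* r 0.66 (p 0.168 by exact permutation) and rho 0.61, *Phlda1* r 0.64 (p 0.0554 by exact permutation) and rho 0.52, and *Dusp6* r 0.61 (p 0.107 by exact permutation) and rho 0.66. The remaining r values were 0.45 for *Dusp4*, 0.44 for *Etv4*, 0.40 for *Etv5* and 0.23 for *Spred1*, with rho of 0.37, 0.43, 0.33 and 0.56. The exact permutation p for these 4 genes was 0.232, 0.275, 0.387 and 0.525 for r. For rho, the exact permutation p was 0.195 for *Spry2*, 0.171 for *Spry4*, 0.189 for *Phlda1*, 0.131 for *Dusp6*, 0.305 for *Dusp4*, 0.250 for *Etv4*, 0.392 for *Etv5* and 0.0921 for *Spred1*. Adjusted over the 9 relations, the permutation p was 0.316 for r of the first 5 genes, between 0.347 and 0.525 for the other 4, and between 0.293 and 0.392 for rho, so 0 of the 9 passed.

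The co-variation rested on wildtype replicates 4 and 1. These were the 2 tumors farthest from the median of *Dusp5*, and without them r over the remaining 8 tumors lay between -0.62 (*Spry2*) and 0.05 (*Spred1*) and was negative for 8 of the 9 genes. *Spry1* went from 0.78 to -0.55, and *Dusp6* from 0.61 to -0.40 (exact permutation p 0.0361, not adjusted), the 1 relation of 9 with a p under 0.05 there. Leaving out replicate 4 alone gave r between 0.07 for *Dusp4* and 0.61 for *Spred1*, and leaving out gene trap replicate 2 alone gave r between 0.29 for *Spred1* and 0.79 for *Spry1*. The gene trap tumors hardly contributed, since *Dusp5* spanned 693 to 759.8 in that group.

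**Figure D4:**
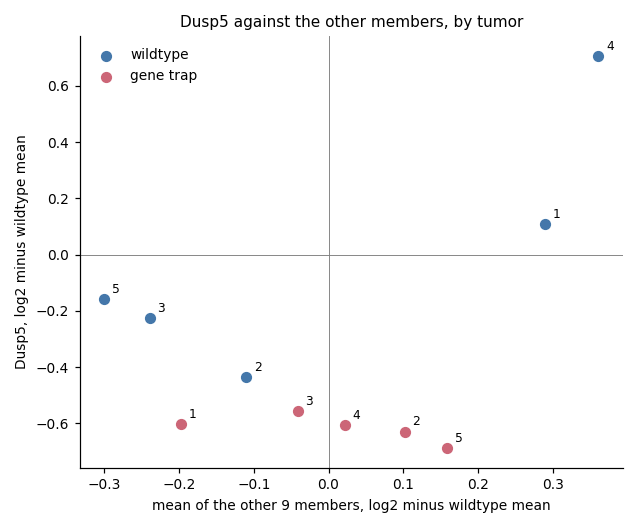
*Dusp5* in each tumor (y axis) against the mean of the other 9 genes (x axis), both as log2 value minus the wildtype mean, with tumors numbered by replicate. Wildtype replicates 1 and 4 stand at the upper right (0.29 and 0.36 on the x axis), and the gene trap tumors form a flat row between -0.69 and -0.55 on the y axis.

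Among the 16173 tested genes with a mean of at least 50, the genes most like *Dusp5* after the group means were removed were *Gm38200* (r 0.92), *Gstm5* (0.91), *Gm26586* (0.91), *Gm21182* (0.90) and *Gdf5* (0.90), and the most opposite were *Wdfy1* (-0.97), *Nkapd1* (-0.95), *Ing5* (-0.93), *Ppfia4* (-0.92) and *Mettl22* (-0.90). These r values are a description over the same 10 tumors. None of these 10 genes separated the genotypes. *Gstm5*, for example, had values of 787 to 1117 in wildtype and 917 to 1033 in gene trap tumors. Over all tested genes 0.261% separated with wildtype above and 0.266% with gene trap above, so none of 10 lies near these shares. *Spry1* was 81st and *Spry2* 258th from the highest r, while *Spred1* was 3629th.

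Levels were compared between genes per kilobase of the longest annotated transcript. *Dusp6* was highest, with 2121 ± 778 (SD, n = 5) per kilobase in wildtype tumors, followed by *Phlda1* (1185 ± 172), *Etv5* (1021 ± 168), *Spred1* (849.6 ± 75.9), *Spry2* (597 ± 153), *Dusp5* (469.9 ± 159), *Spry1* (239 ± 89.7), *Dusp4* (211 ± 65.6), *Etv4* (108 ± 15.0) and *Spry4* (71.0 ± 18.1). The order was the same in gene trap tumors. In wildtype tumors, neighbors from *Phlda1* down to *Dusp4* overlapped in their ranges, and gaps were seen below *Dusp6*, below *Dusp4* and below *Etv4*. *Dusp5* overlapped with *Spry2* above it and *Spry1* below it in wildtype tumors. In gene trap tumors, at 294 ± 9.8 (SD, n = 5) per kilobase, it overlapped with neither.

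The wider RAS-ERK pathway was read from 5 lists of 69 genes, of which 65 were tested. In limma 0 of the 65 passed an adjusted p of 0.05, and the median log2 fold change was -0.04. At an unadjusted p under 0.05 in limma there were 0 in either direction, against 0.956% lower and 1.32% higher over all tested genes. The number whose groups did not overlap was 0, against 0.261% with wildtype above and 0.266% with gene trap above over all tested genes. For 65 genes, counts of 0 lie near these shares. In the cascade from adaptor to ERK, 9 of 22 genes were above 0 and 13 below (48.6% of all tested genes were below), with a median of -0.02. Its smallest p values belonged to the docking protein gene *Gab1* (log2 fold change -0.16, SE 0.09, unadjusted p 0.105 in limma) and to the adaptor gene *Shc1* (0.13, SE 0.08, unadjusted p 0.140 in limma). For the 9 GTPase-activating brakes on RAS the median was -0.001, and *Rasa3*, which had the smallest p among those below 0, was at -0.16 (SE 0.12). For the 13 kinases and transcription factors downstream of ERK the median was -0.06, with *Elk3* at -0.14 (SE 0.09) and *Ets1* at 0.10 (SE 0.12, and -0.01 without gene trap replicate 3), both ETS family factors.

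For the 7 other DUSPs the median log2 fold change was -0.18, with 6 genes below 0 (48.6% of all tested genes were below 0). *Dusp16*, which acts mainly on JNK and p38, had a log2 fold change of -0.19 (SE 0.09, unadjusted p 0.0503 and adjusted p 0.9997 in limma), and -0.12 (unadjusted p 0.132 in limma) without wildtype replicate 4. *Dusp1*, the broadly acting MAP kinase phosphatase that is induced by growth factors and stress, had a log2 fold change of -0.61 (SE 0.32, unadjusted p 0.0778 and adjusted p 0.9997 in limma), close in size to that of *Dusp5*. Its values were 899.8, 557, 386, 1521 and 565 in wildtype tumors and 509, 309.6, 622, 401 and 506 in gene trap tumors, so the groups overlapped, and without wildtype replicate 4 the log2 fold change was -0.33. *Dusp2* was scarce and had a log2 fold change of 0.17 (SE 0.30), which turned to -0.11 without gene trap replicate 3. For 14 of 17 other feedback and output genes of ERK the median was -0.12, with 9 below 0, beside 48.6% of all tested genes. *Egr1*, an immediate early zinc finger factor, measured 1039.8, 570.0, 282, 1855 and 619 in wildtype tumors and 425, 435, 595, 390.2 and 390.2 in gene trap tumors, and its log2 fold change was -0.70 (SE 0.39, unadjusted p 0.0938 and adjusted p 0.9997 in limma). The wildtype tumors lay on both sides of the gene trap tumors, with replicate 4 highest and replicate 3 lowest. Without wildtype replicate 4 the log2 fold change of *Egr1* was -0.36 (unadjusted p 0.251 in limma), and without wildtype replicate 3 it was -1.04 (unadjusted p 0.00549 and adjusted p 1.0 in limma). *Errfi1*, which encodes a feedback inhibitor of EGF receptor, had a log2 fold change of -0.57 (SE 0.34), and -0.27 without wildtype replicate 4, with values of 4129 to 19836 in wildtype and 5020.2 to 6919 in gene trap tumors. *Il17rd*, which encodes the feedback inhibitor SEF, had a log2 fold change of 0.29 (SE 0.18), and 0.16 without gene trap replicate 5.

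Immediate early genes, which respond within minutes to growth factors and also to tissue handling, were listed because *Dusp5* is itself induced early. Of 16 genes, 11 were below 0 and 5 above, with a median of -0.20 (48.6% of all tested genes were below 0). In limma 0 passed an adjusted p of 0.05, while 2 were lower and 0 higher at an unadjusted p under 0.05 (0.956% and 1.32% of all tested genes). These 2 were *Fos* and *Egr2*. *Egr2* measured 225, 175, 159.7, 213 and 153 in wildtype tumors and 142, 142, 140.4, 145 and 119.7 in gene trap tumors, so that the groups did not overlap (0.261% of all tested genes in this direction), with a log2 fold change of -0.41 (SE 0.14, unadjusted p 0.0126 and adjusted p 0.9997 in limma). *Fos* measured 2965, 2919, 1531, 5416 and 2839 in wildtype tumors and 1818, 975, 1819, 2284 and 1884 in gene trap tumors, with a log2 fold change of -0.77 (SE 0.29, unadjusted p 0.0218 and adjusted p 0.9997 in limma). Replicate 3 was the lowest wildtype tumor for *Fos* and overlapped with the gene trap tumors. *Btg2*, an antiproliferative gene, had a log2 fold change of -0.56 (SE 0.29), and -0.28 without wildtype replicate 4. *Ier5* had a log2 fold change of 0.13 (SE 0.13).

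Wildtype replicate 4 stood high in these lists, as the highest of the 10 tumors for 11 of the 16 immediate early genes (68.8%), 5 of the 14 other feedback and output genes and 3 of the 7 other DUSPs. It was highest for 8.16% of all tested genes. Without this tumor the median was -0.03 for the immediate early list and -0.009 for the other feedback and output list. For the other DUSPs the median stayed between -0.21 and -0.12 whichever single tumor was left out. *Fos* then had a log2 fold change of -0.55 (unadjusted p 0.0544 in limma), and without gene trap replicate 2 it was -0.58 (unadjusted p 0.0558 in limma). *Egr2* without wildtype replicate 4 had -0.35 (unadjusted p 0.0364 in limma). The summed value of the immediate early list was 18881 to 39138 in wildtype and 17703 to 24125 in gene trap tumors. The part of tissue handling in the *Dusp5* difference was not tested.

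CArG boxes were then looked up across the table. In tested genes with a promoter window, the median log2 fold change was 0.007 for the 188 genes with at least 1 box and 0.009 for the 11986 genes without. The log2 fold change was below 0 for 47.3% of the genes with a box and 46.6% of those without. All wildtype tumors were above all gene trap tumors for 2 of the 188 (1.06%), *Dusp5* and *Egr2*, and for 11 of the 11986 (0.0918%). The first count rests on 2 genes, 1 of them *Dusp5*, chosen on this contrast, so the percentages are not evidence of a link to the box. Such a link was not tested. *Egr2* held 1 box, and among the immediate early genes with a window *Zfp36* was the other holder of a box. *Egr3* and *Ier2* had no window. The windows reach only 250 bases before the start, so genes counted as without a box, *Fos* among them, may hold one farther out. *Srf*, which encodes serum response factor and was the other tested gene with 2 or more boxes, had means of 888 ± 126 (SD, n = 5) for wildtype and 832 ± 51.9 (SD, n = 5) for gene trap, a log2 fold change of -0.08 (SE 0.10).

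The 6 nearest genes in the table on either side of *Dusp5* along the chromosome were looked up after its values were seen. None of them separated the genotypes. Over all tested genes 0.261% separated with wildtype above and 0.266% with gene trap above, and for 6 genes a count of none lies near these shares. The log2 fold changes were -0.02 for *Smndc1*, -0.25 for *Mirt1*, -0.11 for *4833407H14Rik*, 0.08 for *Nutf2-ps1*, -0.01 for *Smc3* and 0.60 (SE 0.36, and 0.32 without gene trap replicate 5) for *Rbm20*, against -0.62 for *Dusp5*.

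Cell type markers were read beside *Dusp5*. Markers of luminal epithelium were abundant in all tumors, with 10 genes summing to between 90298 and 118085 in wildtype and between 93841 and 123955 in gene trap tumors. All 9 myoepithelial markers had log2 fold changes below 0 (48.6% of all tested genes did), their median being -0.36. Of these 9, 2 had an unadjusted p under 0.05 in limma (0.956% of all tested genes in this direction) and 0 an adjusted p under 0.05. Their sum was 8330 to 11447 in wildtype and 6112 to 8569 in gene trap tumors. The 4 adipocyte markers were also all below 0 (median -0.38), as were 9 of 10 endothelial markers (median -0.07). Of the 9 fibroblast markers, 8 were above 0 (median 0.09). In the remaining lists the directions were mixed. Fibroblast markers (9 of 9 measured) summed to 40565 to 86901 and 53548 to 123132, endothelial markers (10 of 10) to 3889 to 6948 and 3839 to 6430, and macrophage markers (9 of 9) to 9978 to 16120 and 10380 to 14878. T and NK cell markers (10 of 10) summed to 163 to 442 and 171 to 643, neutrophil markers (5 of 6) to 318 to 1003 and 350 to 2092, and B cell markers (2 of 6) to 21 to 210 and 15 to 353. Adipocyte markers (4 of 7) summed to 1987 to 6921 and 1187 to 4309, and skeletal muscle markers (4 of 7) to 673 to 10218 and 1610 to 4745. The sums of every list overlapped between the genotypes, and the part of cell composition in the *Dusp5* difference was not tested.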

How the data were processed

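Values came from primary mammary tumors, 5 wildtype and 5 gene trap. The labels list 8 tumors per genotype, and of 16 columns of values in the table, 10 carried a name that fits a labelled tumor and 6 did not and were not used. The authors deposited a normalized signal per gene, estimated counts scaled by the median ratio method, and the submitters' processing notes name Partek, STAR 2.7.8a, DESeq2 and mm39. The annotation and the counter are not given in the sources used here. The values were not multiples of a common step, so whole reads could not be recovered, and normalization before deposition could hide a shift shared by most genes.

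Of 23609 gene IDs, 22899 (97%) had a symbol. The only coordinates given are those of RefSeq promoter windows in GRCm38.p6. A pseudocount of 1 was added, the log2 taken, and limma (version 3.58.1, under R 4.3.3) run on the 21034 genes with a mean of at least 10. Genotype was the single factor, empirical Bayes moderation followed the variance trend, and p was adjusted by the Benjamini-Hochberg method. This took the place of the DESeq2 test named in the methods because the values are not counts. Co-variation was tested by exact two-sided permutation of the tumors within their groups (14400 arrangements). Genes named are *Resf1*, the 10 genes, the gene of each list with the smallest p in each direction, and the 5 most like and 5 most unlike *Dusp5*. For 1 list, the gene of 1 direction is not reported here. *Dusp1*, *Errfi1*, *Btg2*, *Fos*, *Srf*, *Zfp36* and the genes next to *Dusp5* were named after their values were seen. The genes and lists were chosen with earlier results of these data known. The labels do not say whether equal replicate numbers pair tumors across the genotypes, and the main fit used no pairing. The calculations were tested on simulated data. Alternatives were a block for the replicate number, leaving out each tumor, other pseudocounts and filters, rescaling to the same total, quantile normalization, weights per tumor and no variance trend. Figures were drawn with matplotlib (version 3.10.9).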

Additional observations from a re-analysis of the deposited data

Results flagged for a closer look

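Dixon's test was applied to 66 groups of 5 tumors, from 33 measures, and marked 11 single tumors as far from the rest of their group, where chance alone would mark about 3.3. Among the ERK feedback genes, *Spred1* in wildtype replicate 1 was 5913, against 4820 to 5048 in the other wildtype tumors. *Dusp5* had no such tumor in either group. Among the pathway genes, *Dusp16* was 4238 in wildtype replicate 4, against 3130.3 to 3432, and *Il17rd* was 892 in gene trap replicate 5, against 503 to 600.4. In gene trap replicate 3, *Ets1* was 2603 against 1623 to 1902, *Dusp2* was 54.2 against 16.5 to 24.2, and *Egr1* was 595 against 390.2 to 435. *Egr2* was low in gene trap replicate 5, with 119.7 against 140.4 to 145.

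The remaining 4 were summed marker levels. In gene trap replicate 3 the T and NK cell markers summed to 643, where the rest of that group had 171 to 237, and the B cell markers to 353, where the rest had 14.5 to 36.8. Fibroblast markers summed to 123100 in gene trap replicate 1, against 53550 to 65130, and skeletal muscle markers to 10220 in wildtype replicate 5, against 673 to 2950.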

How the results depend on the processing

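The log2 fold change of *Dusp5* kept its sign under all 19 alternatives, from -0.73 without wildtype replicate 2 to -0.44 without wildtype replicate 4 when single tumors were left out, and from -0.64 to -0.61 under the rest. The median of the 9 other genes lay between -0.08 and 0.11 with single tumors left out and between -0.04 and -0.009 otherwise. The number of genes past an adjusted p of 0.05 in limma was 0 under every alternative. The number at an unadjusted p under 0.05 was 479, and it was 305 with the columns rescaled to the same total and between 308 (without wildtype replicate 4) and 692 with single tumors left out. Replicate numbers were checked for pairing, and the correlation of same-numbered deviations ran from -0.16 to 0.15, with 1 of 5 wildtype tumors best matched by its own number. With the replicate block the *Dusp5* log2 fold change was -0.62 (SE 0.16), 426 genes had an unadjusted p under 0.05, and 0 passed an adjusted p of 0.05 in limma, as without the block. The block was not run for the co-variation, where it would leave 5 differences. The adjusted permutation p of the co-variation lay between 0.214 and 0.868 over its alternatives. Unknown depth and 5 tumors per group limit the precision, and the intervals of *Dusp4*, *Dusp6* and *Spry1* were the widest.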
